A study of Mus musculus with 12 samples.

Results

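The 10 genes Dusp1, Dusp4, Dusp5, Dusp6, Dusp10, Dusp14, Dusp16, Spry1, Spry2, and Spry4, which belong to the negative feedback on mitogen-activated protein kinase (MAPK) signaling, were followed in cultured fibroblasts. They were taken by gene symbol from a table of 56941 genes, of which 29236 had at least 1 count. After the filter on low counts, all 10 members were among the 14810 genes tested. The cells were 3T3-L1, a fibroblast line of mouse embryos that can be turned into adipocytes, labelled as wild type and used here in place of skin fibroblasts. Bulk RNA-seq was done on 12 libraries, 3 for each of 4 conditions, to ask how type 2 cytokines act on fibroblasts alone and in an inflammatory setting.

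Control cells received vehicle by their treatment label, while their library names call them untreated. IL-4/13 cells received the type 2 cytokines, 50 ng/mL each of IL-4 and IL-13. Inf cells received inflammatory cytokines, which were 20 ng/mL TNF-α, 50 ng/mL IL-17A, and 0.5 ng/mL IL-1β. IL-4/13 + Inf cells received all 5 cytokines at these doses. Cells of every condition were cultured for 24 hours, so a single time point was measured, and all libraries carry the same batch label. Nothing in the labels says that the 3 libraries of a condition came from separate cultures. The P values set differences between conditions against the spread between these libraries, which may not include the spread between cultures.

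The libraries held 13446005 to 20775769 counts. Within conditions, the squared differences between pairs of libraries were 2.27 to 8.58 times those expected from sampling noise (chi-square per degree of freedom over genes). The 2 highest values, 8.58 and 8.21, were those of Inf replicate 3 against the other Inf libraries. The value between Inf replicates 1 and 2 was 4.64. Values without Inf replicate 3 are therefore given beside the members' called differences of Inf against control, of IL-4/13 + Inf against Inf, and of the interaction. They are not given for the markers or for other genes of the pathway. Of 10 fibroblast markers, all were detected and tested. The summed level of these markers ranged from 17720 to 20640 CPM in control, 15630 to 16460 in IL-4/13, 12580 to 14200 in Inf, and 10900 to 11310 in IL-4/13 + Inf. Of the 10, Inf lowered 6 (Col1a1, Col1a2, Col6a1, Fn1, Thy1, and Vim) and raised 2 (Pdgfra and Pdgfrb), IL-4/13 lowered 4 and raised 0, and IL-4/13 + Inf lowered 8 and raised 0. Among all tested genes, 15.3% were called down and 16.3% up with Inf, and 2.57% down and 2.78% up with IL-4/13. With IL-4/13 + Inf, 11.5% were called down and 13.4% up. The 8 macrophage markers summed to 17.4 to 21.1 CPM in control and 43.5 to 58.3 in Inf. Most of this sum was Cd14, at 14.9 ± 1.49 CPM in control and 44.7 ± 6.81 in Inf. Of the 4 macrophage markers tested, Inf raised Cd14 and Mrc1, and Csf1r (log2 fold change −0.44) and Cd68 (0.12) were not called. IL-4/13 + Inf also raised Cd14 and Mrc1 against control, and it lowered Csf1r (−0.81). Of 6 adipocyte markers, Fabp4 alone passed the filter, and it rose with IL-4/13 (0.50), Inf (1.41), and IL-4/13 + Inf (0.77), with an interaction of −1.14 (adjusted p = 6.26e-05). Cdh5, the endothelial marker tested, rose with Inf from 0.12 to 0.85 CPM (log2 fold change 2.73), with at most 22 counts in a library. Of 5 T cell markers 3, of 5 keratinocyte markers 2, and of 5 endothelial markers 1 were at 0 in every library. The T cell marker tested, Trac, had condition means of 0.56 to 0.77 CPM. The keratinocyte marker tested, Krt10, had means of 3.57 to 5.36 CPM, and neither was called in any contrast. The part of these markers in the results below was not tested. In bulk RNA, fewer cells of a type and less RNA per cell cannot be told apart.

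MAPK cascades pass a signal from a receptor to a kinase (ERK, p38, or JNK) that is switched on by phosphorylation of a threonine and a tyrosine. Dual-specificity phosphatases (DUSPs) remove both phosphates, and Sprouty proteins act further up, between receptor tyrosine kinases and Ras-ERK. Many of these genes are themselves induced by the kinases that they restrain, so their transcripts are often read as a record of recent pathway activity. Dusp1, Dusp4, and Dusp5 encode nuclear phosphatases, of which the last is selective for ERK. Dusp6 encodes a cytoplasmic ERK phosphatase, Dusp10 and Dusp16 encode phosphatases that prefer JNK and p38, and Dusp14 encodes a small atypical phosphatase without the MAPK-binding domain of the others.

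Promoter sequences are shown for the 3 members in which a motif was found, among them Dusp5, which fell with Inf, and Dusp16, which rose. Windows of 250 bases before the transcription start were held by RefSeq (GRCm38.p6) for 8 members, with none for Dusp4 and Spry4. Both strands were searched for the cAMP response element (CRE, TGACGTCA), its core (TGACG, which every CRE contains), the AP-1 site (TGANTCA), an ETS site (CCGGAAGT), a STAT6 site (TTC and GAA with 4 bases between), the E-box (CACGTG), the NF-κB consensus, and the CArG box, the site of serum response factor. The motifs were chosen after results of these data were known, and the NF-κB pattern and the CArG box were settled after a first search. The counts were in a different genome build (GRCm39), and gene models were joined by identifier only. Matches are in capitals below, each stretch is 100 bases on the gene's strand, and positions are counted back from the RefSeq start.
Dusp1, chr17:26508573-26508672, minus strand: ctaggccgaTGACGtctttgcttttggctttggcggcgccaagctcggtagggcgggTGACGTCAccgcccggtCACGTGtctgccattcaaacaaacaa
Dusp5, chr19:53529005-53529104, plus strand: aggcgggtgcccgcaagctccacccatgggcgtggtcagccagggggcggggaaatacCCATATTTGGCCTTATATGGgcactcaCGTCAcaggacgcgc
Dusp16, chr6:134792629-134792728, minus strand: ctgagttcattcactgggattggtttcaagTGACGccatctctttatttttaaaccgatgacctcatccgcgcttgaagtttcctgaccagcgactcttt

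In Dusp1 the capitals mark, in order, a CRE core at −191 to −187, a full CRE at −143 to −136, and an E-box at −126 to −121. In Dusp5 they mark a pair of CArG boxes side by side, at −82 to −73 and −72 to −63, and a CRE core at −55 to −51 on the other strand. In Dusp16 they mark a CRE core at −70 to −66. Among 32851 promoter windows of the same length, 1.55% held a CRE, 17.8% its core, 6.02% an E-box, and 1.47% a CArG box. No member's window held the AP-1, ETS, STAT6, or NF-κB letters, which 6.75%, 2.88%, 5.85%, and 7.25% of all windows held. The first bases of the Dusp16 transcript in RefSeq were not found in a GENCODE M21 transcript, whereas those of the other 7 genes were.

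Counts were scaled to CPM, a count relative to the total of its library, with TMM factors, and members were compared with each other as CPM per kb of the longest annotated transcript. The member counts lay between 129 and 1153 per library. The SD over the 3 libraries was 1.54% to 15.2% of the mean (median 6.96%), and counting error alone would give 3.15% to 7.74%. In control cells Dusp1 had the highest level per length at 22.8 ± 2.14 CPM per kb (SD, n = 3, as for all levels below), followed by Spry2 at 15.3 ± 1.24 and Dusp5 at 14.6 ± 1.40. Dusp16, at 5.70 ± 0.37, ranked 8 of 10 in control, and Spry4, at 3.45 ± 0.34, was the lowest.

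The summed level of the 10 transcripts was 113 ± 2.00 CPM per kb in control and 108 ± 1.20 in IL-4/13. With Inf it was 78.5 ± 0.47, and with IL-4/13 + Inf 81.9 ± 1.25. The sums with Inf did not overlap with those without Inf. The Sprouty transcripts summed to 29.8 ± 1.11, 23.4 ± 0.69, 14.4 ± 0.66, and 14.2 ± 0.57 in the same order, and both conditions with Inf lay below both without it. The 6 DUSPs of the MAPK phosphatase type (Dusp1, Dusp4, Dusp5, Dusp6, Dusp10, Dusp16) summed to 69.8 ± 0.20, 70.6 ± 2.46, 57.6 ± 1.64, and 59.98 ± 0.99. The make-up of these 6 also differed. Dusp16 made up 8.18% ± 0.54 of their sum in control and 9.81% ± 0.69 in IL-4/13, and 16.5% ± 1.47 with Inf and 18.8% ± 0.57 with IL-4/13 + Inf, and its rank among the 10 members was 3 in both conditions with Inf. Dusp1 was the highest and Spry4 the lowest in every condition.

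**Figure D1:**
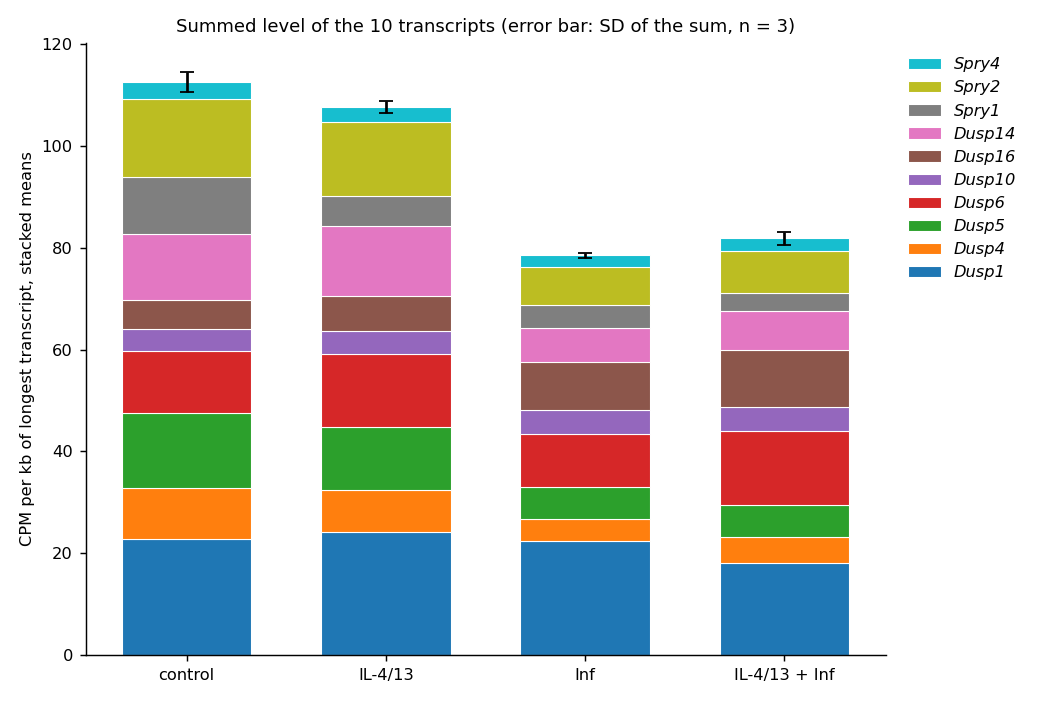
Stacked mean levels of the 10 transcripts in CPM per kb of the longest transcript, by condition, with the SD of the sum over 3 libraries. The bars reach 113 (control), 108 (IL-4/13), 78.5 (Inf), and 81.9 (combined), and the Dusp16 segment is wider in both conditions with Inf.

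A gene was called when its adjusted p was under 0.05 and its log2 fold change exceeded 0.25 in either direction, in 1 edgeR quasi-likelihood fit of all 12 libraries with adjustment over all tested genes. IL-4/13 against control called 1 member up (Dusp16) and 2 down (Dusp4 and Spry1), where 2.78% of all tested genes were called up and 2.57% down. Inf against control called 1 member up (Dusp16) and 6 down (Dusp4, Dusp5, Dusp14, Spry1, Spry2, and Spry4), against 16.3% up and 15.3% down among all genes. IL-4/13 + Inf against control called 2 up (Dusp6 and Dusp16) and 7 down (the same 6 and Dusp1), against 13.4% up and 11.5% down. These 3 contrasts share the control libraries. The median log2 fold change of the members was −0.02, −0.80, and −0.62, and that of all tested genes was −0.0014, 0.0073, and −0.00084.

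When IL-4/13 was added to Inf, 1 member was called up (Dusp6) and 2 down (Dusp1 and Spry1), against 7.55% up and 7.0% down among all genes. When Inf was added to IL-4/13, 1 member was called up (Dusp16) and 6 down (Dusp1, Dusp4, Dusp5, Dusp14, Spry1, and Spry2), against 13.3% up and 11.0% down. The median log2 fold change of the members was 0.14 and −0.54, and that of all genes was −0.0098 and −0.0021. Without Inf replicate 3, the members called were 7 for Inf against control, 3 for IL-4/13 + Inf against Inf, and 8 for IL-4/13 + Inf against IL-4/13, where all libraries gave 7, 3, and 7. In IL-4/13 + Inf against Inf the members called were not the same ones. Without that library, Dusp1 was no longer called (−0.29, adjusted p = 0.0700) and Dusp14 was called up (0.32, adjusted p = 0.0468). Over the 12 fits that left out 1 library, Inf against control called 4432 to 4802 of the 14810 tested genes. IL-4/13 + Inf called 1798 to 2248 against Inf and 3222 to 3681 against IL-4/13.

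**Figure D2:**
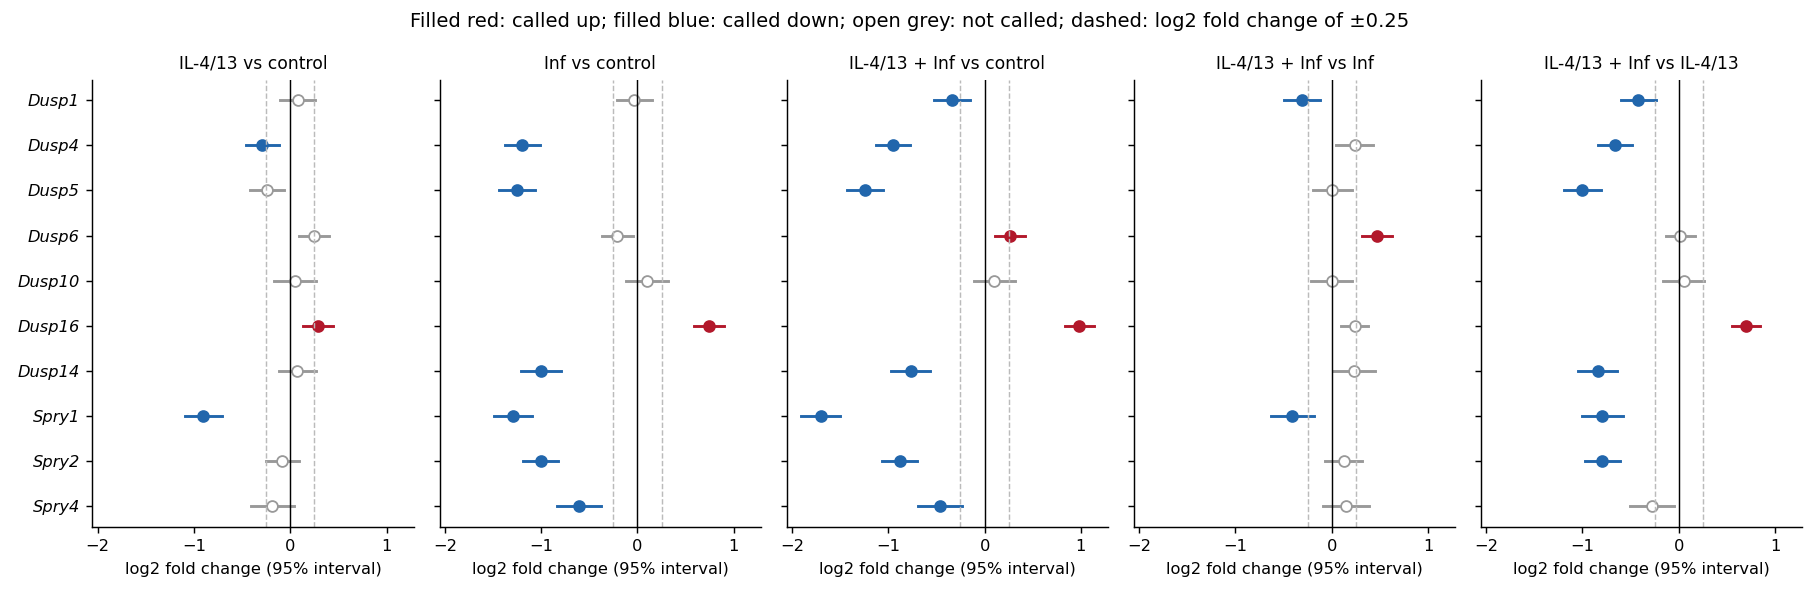
Log2 fold change of each member with its 95% interval in 5 contrasts. Filled red points were called up, filled blue points down, and open grey points were not called. In the panel of Inf against control, 6 members lie to the left of the lower dashed line and Dusp16, at 0.74, to the right of the upper one.

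Dusp16 (ENSMUSG00000030203, GRCm38 chr6:134715468-134792625, minus strand), whose product prefers JNK and p38, was the only member called up by Inf. Its level was 27.1, 30.8, and 29.4 CPM in the 3 control libraries, 38.2, 34.2, and 33.7 in IL-4/13, 49.4, 52.1, and 44.4 in Inf, and 57.2, 55.0, and 60.3 in IL-4/13 + Inf. No condition overlapped with another, and the levels were lowest in control, then in IL-4/13 and Inf, and highest in the combined condition. Inf raised Dusp16 1.67-fold (log2 fold change 0.74 ± 0.07 [SE], adjusted p = 1.09e-09), and IL-4/13 + Inf raised it 1.98-fold (0.98 ± 0.07, adjusted p = 1.71e-12). Without Inf replicate 3, the log2 fold change with Inf was 0.80. IL-4/13 raised Dusp16 1.22-fold without Inf (0.29 ± 0.08, adjusted p = 0.016). With Inf the difference was 1.18-fold (0.24 ± 0.07, adjusted p = 0.0122), under the threshold on fold change. The response to IL-4/13 with Inf differed from that without Inf by −0.05 on the log2 scale (95% interval −0.26 to 0.17).

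The IL-4/13 call of Dusp16 was not made without control replicate 1 (log2 fold change 0.24, adjusted p = 0.123) or without IL-4/13 replicate 1 (0.22, adjusted p = 0.151), and over all 12 such fits the adjusted p ran from 0.00527 to 0.151. Added to Inf, IL-4/13 passed the threshold for Dusp16 without Inf replicate 1 (0.25), Inf replicate 2 (0.30), or IL-4/13 + Inf replicate 2 (0.27). Without Inf replicate 3 this last difference was 0.18.

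Dusp10 (ENSMUSG00000039384, GRCm38 chr1:184013302-184075636, plus strand), the other phosphatase that prefers JNK and p38, was not called in any contrast. It was at 10.9, 12.2, and 13.4 CPM in control, 13.3, 12.4, and 11.98 in IL-4/13, 14.02, 12.7, and 12.5 in Inf, and 12.8, 13.6, and 12.6 in IL-4/13 + Inf. All conditions overlapped with their neighbours in order of level. The largest of its log2 fold changes was 0.10 with Inf, with a 95% interval of −0.12 to 0.31 (0.13 without Inf replicate 3).

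**Figure D3:**
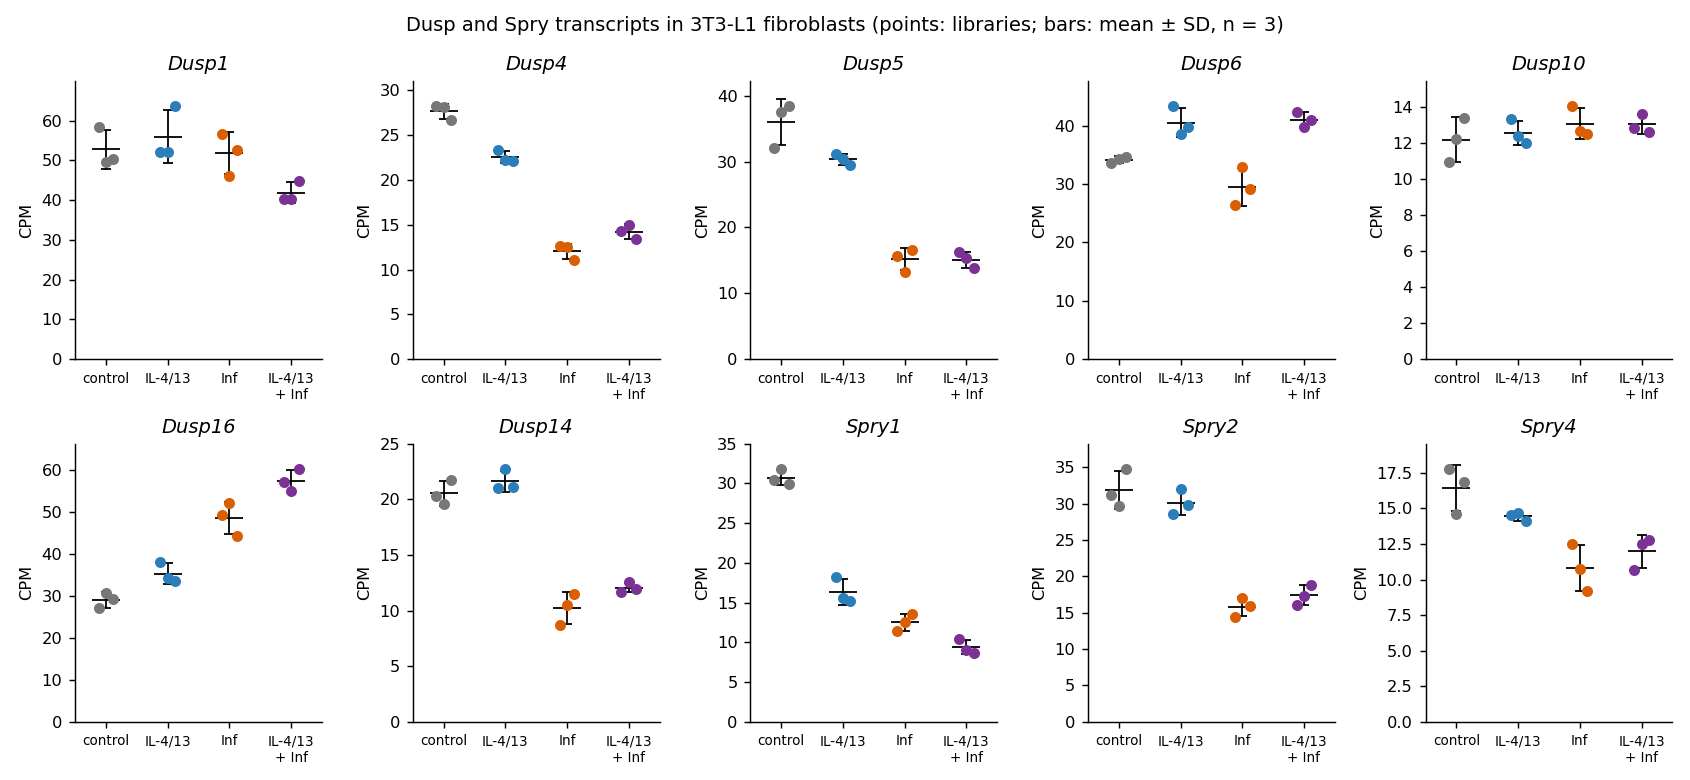
CPM of each member in every library (points), with the mean and SD of each condition (n = 3, axes from 0). Dusp16 goes from 29.1 in control to 57.5 in IL-4/13 + Inf, Spry1 goes from 30.7 to 9.41, and Dusp10 stays between 10.9 and 14.02 in all libraries.

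Of the nuclear phosphatases, Dusp4 and Dusp5 fell with Inf and Dusp1 was not called. Dusp5 (ENSMUSG00000034765, GRCm38 chr19:53529109-53542431, plus strand), whose product is selective for ERK, was at 32.1, 37.6, and 38.4 CPM in control and 31.2, 30.5, and 29.5 in IL-4/13. With Inf it was at 15.6, 13.3, and 16.6 CPM, and with IL-4/13 + Inf at 16.2, 15.3, and 13.8. Both conditions with Inf lay below every library without Inf, and they overlapped with each other. Inf lowered Dusp5 to 0.42-fold of control (log2 fold change −1.25 ± 0.09, adjusted p = 1.2e-12; −1.33 without Inf replicate 3), and so did IL-4/13 + Inf (−1.25 ± 0.09, adjusted p = 1.25e-12). IL-4/13 changed it by −0.24 without Inf (adjusted p = 0.0778) and by 0.01 with Inf (95% interval −0.20 to 0.21; 0.08 without Inf replicate 3). Leaving out control replicate 1 turned the first of these into a call (−0.32, adjusted p = 0.0364), and over the 12 fits its adjusted p ran from 0.0364 to 0.289. The annotated exons of Dusp5 are overlapped over 22.1% of their bases by a gene on the other strand, which had 13 counts over all libraries.

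Dusp4 (ENSMUSG00000031530, GRCm38 chr8:34807297-34819894, plus strand) separated all 4 conditions. Its level was 28.2, 28.1, and 26.6 CPM in control, 23.4, 22.2, and 22.1 in IL-4/13, 12.6, 12.5, and 11.1 in Inf, and 14.3, 15.01, and 13.4 in IL-4/13 + Inf. Adding IL-4/13 went with lower values in the absence of Inf and with higher values in its presence. Inf lowered Dusp4 to 0.44-fold of control (log2 fold change −1.20 ± 0.09, adjusted p = 1.27e-12; −1.14 without Inf replicate 3), and IL-4/13 + Inf to 0.52-fold (−0.96 ± 0.09, adjusted p = 1.25e-10). IL-4/13 alone lowered it to 0.82-fold (−0.29 ± 0.08, adjusted p = 0.0236). This call was not made without control replicate 1 (adjusted p = 0.101), control replicate 2 (0.0690), IL-4/13 replicate 2 (0.0864), or IL-4/13 replicate 3 (0.0824), with log2 fold changes of −0.27 to −0.28, and over the 12 fits the adjusted p ran from 0.0125 to 0.101. Added to Inf, IL-4/13 gave a difference of 0.24 ± 0.09 (adjusted p = 0.0645; 0.19 without Inf replicate 3).

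Dusp1 (ENSMUSG00000024190, GRCm38 chr17:26505590-26562128, minus strand), an early response gene that also acts on p38 and JNK, was called down in the combined condition and with neither treatment alone. Levels were 58.5, 49.5, and 50.3 CPM in control, 52.1, 52.1, and 63.6 in IL-4/13, 56.5, 46.0, and 52.7 in Inf, and 40.3, 40.2, and 44.9 in IL-4/13 + Inf. The first 3 conditions overlapped, and every IL-4/13 + Inf library lay below them. IL-4/13 + Inf lowered Dusp1 to 0.79-fold of control (log2 fold change −0.34 ± 0.09, adjusted p = 0.00447) and to 0.75-fold of IL-4/13 (−0.42 ± 0.09, adjusted p = 0.00075). Against Inf it was at 0.81-fold (−0.31 ± 0.09, adjusted p = 0.0152). IL-4/13 alone gave 0.08 (95% interval −0.10 to 0.26), and Inf alone gave −0.03 (−0.21 to 0.15; −0.05 without Inf replicate 3).

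The Dusp1 call against Inf was not made without Inf replicate 1 (log2 fold change −0.24, adjusted p = 0.0819), Inf replicate 3 (−0.29, 0.0700), IL-4/13 + Inf replicate 1 (−0.28, 0.0743), or IL-4/13 + Inf replicate 2 (−0.28, 0.0640), and over the 12 fits the adjusted p ran from 0.00246 to 0.0819. The annotated Dusp1 gene spans a stretch of Ergic1 on the other strand, but this and the other overlapping genes cover 0.33% of the Dusp1 exon bases.

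Dusp6 (ENSMUSG00000019960, GRCm38 chr10:99263231-99267489, plus strand), the cytoplasmic ERK phosphatase, was the only member called up when IL-4/13 was added to Inf. It was at 33.6, 34.3, and 34.6 CPM in control, 43.3, 38.5, and 39.7 in IL-4/13, 26.4, 32.9, and 29.1 in Inf, and 42.3, 39.8, and 41.0 in IL-4/13 + Inf. Both conditions with IL-4/13 overlapped and lay above control, and Inf lay below control. Against Inf, IL-4/13 + Inf was 1.39-fold higher (log2 fold change 0.47 ± 0.08, adjusted p = 1.9e-05; 0.46 without Inf replicate 3). Against control it was 1.20-fold higher (0.26 ± 0.07, adjusted p = 0.00574), a call not made without IL-4/13 + Inf replicate 1 (0.25, adjusted p = 0.0288) or with library size alone as the scaling (0.24, adjusted p = 0.0125), both under the threshold on fold change, while the adjusted p ran from 0.0011 to 0.0288 over all settings.

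Either treatment alone passed the threshold on adjusted p for Dusp6 and not that on fold change. IL-4/13 gave 0.247 (adjusted p = 0.0356), which passed 0.25 with library size alone (0.25) or no filter on low counts (0.25) and without IL-4/13 replicate 2 (0.28). Inf gave −0.21 (adjusted p = 0.0289), which passed without Inf replicate 2 (−0.29) and was −0.20 without Inf replicate 3. Over the 12 fits that left out 1 library, the adjusted p ran from 0.0187 to 0.224 for IL-4/13 and from 0.00405 to 0.179 for Inf. Over the settings that kept all libraries, it ran from 0.013 to 0.056 for IL-4/13 and from 0.0132 to 0.0652 for Inf.

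Dusp14 (ENSMUSG00000018648, GRCm38 chr11:84048041-84069261, minus strand), the atypical member, fell with Inf. It was at 20.3, 19.6, and 21.7 CPM in control, 21.1, 22.7, and 21.1 in IL-4/13, 8.71, 10.5, and 11.5 in Inf, and 11.7, 12.5, and 11.9 in IL-4/13 + Inf. Conditions with Inf lay below those without it, and the Inf libraries lay below the IL-4/13 + Inf libraries. Inf lowered Dusp14 to 0.50-fold of control (log2 fold change −0.997 ± 0.10, adjusted p = 1.52e-09; −1.08 without Inf replicate 3), and IL-4/13 + Inf to 0.59-fold (−0.77 ± 0.10, adjusted p = 1.78e-07). IL-4/13 changed it by 0.07 without Inf (95% interval −0.12 to 0.27). Added to Inf, IL-4/13 gave 0.23 ± 0.11 (adjusted p = 0.128), which was called without Inf replicate 3 (0.32, adjusted p = 0.0468; 0.0468 to 0.447 over the 12 fits). In this gene, 1.64% of 50-base stretches also occur in the annotated transcript Gm18555, so a few reads could have been split between them.

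All 3 Sprouty transcripts fell with Inf, and Spry1 fell with IL-4/13 as well. Spry1 (ENSMUSG00000037211, GRCm38 chr3:37639947-37644598, plus strand) was at 30.5, 31.8, and 29.9 CPM in control, 18.2, 15.6, and 15.1 in IL-4/13, 11.4, 12.6, and 13.5 in Inf, and 10.5, 9.05, and 8.71 in IL-4/13 + Inf. No condition overlapped with another. IL-4/13 alone lowered Spry1 to 0.53-fold of control (log2 fold change −0.91 ± 0.09, adjusted p = 2.63e-08), the largest change of a member with IL-4/13. Inf lowered it to 0.41-fold (−1.29 ± 0.10, adjusted p = 1.45e-12; −1.35 without Inf replicate 3), and IL-4/13 + Inf to 0.31-fold (−1.70 ± 0.10, adjusted p = 4.73e-15). Added to Inf, IL-4/13 lowered Spry1 to 0.75-fold (−0.41 ± 0.11, adjusted p = 0.00602; −0.35 without Inf replicate 3). Its share of the Sprouty sum per length was 37.2% ± 2.52 in control, 25.2% ± 2.59 in IL-4/13, 31.4% ± 2.00 with Inf, and 23.9% ± 3.27 with IL-4/13 + Inf. A gene on the other strand overlaps 24.4% of the Spry1 exon bases and had 23 counts over all libraries.

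Spry2 (ENSMUSG00000022114, GRCm38 chr14:105891947-105896819, minus strand), the Sprouty with the highest level per length, was at 31.2, 29.7, and 34.7 CPM in control, 28.6, 32.0, and 29.8 in IL-4/13, 14.4, 17.05, and 15.9 in Inf, and 16.1, 17.3, and 18.8 in IL-4/13 + Inf. Conditions fell into those with and those without Inf, with overlap within each. Inf lowered Spry2 to 0.50-fold (log2 fold change −1.01 ± 0.09, adjusted p = 8.48e-11; −1.01 without Inf replicate 3), and IL-4/13 + Inf to 0.54-fold (−0.88 ± 0.09, adjusted p = 1.2e-09). IL-4/13 gave −0.08 without Inf (95% interval −0.26 to 0.09) and 0.13 with Inf (−0.07 to 0.32).

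Spry4 (ENSMUSG00000024427) showed the smallest fall of the 3 with Inf. Its level was 17.8, 14.6, and 16.9 CPM in control, 14.5, 14.7, and 14.1 in IL-4/13, 12.5, 10.7, and 9.21 in Inf, and 10.7, 12.5, and 12.8 in IL-4/13 + Inf. Every library with Inf lay below those without it, and control overlapped with IL-4/13. Inf lowered Spry4 to 0.66-fold (log2 fold change −0.61 ± 0.11, adjusted p = 5.41e-05; −0.51 without Inf replicate 3), and IL-4/13 + Inf to 0.72-fold (−0.46 ± 0.11, adjusted p = 0.00134). Against IL-4/13, IL-4/13 + Inf gave −0.28 ± 0.11 (adjusted p = 0.0592), which was called with library size alone (−0.31, adjusted p = 0.0331), with only the compared groups fitted (−0.28, 0.0323), and without Inf replicate 3 (−0.27, 0.0445). Over the settings that kept all libraries, the adjusted p ran from 0.0323 to 0.0899, and over the 12 fits from 0.0445 to 0.290.

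The interaction tested for a dependence of the IL-4/13 response on Inf, as the log2 response with Inf minus that without Inf. It called 2 members up (Dusp4 and Spry1) and 0 down in edgeR, against 1.52% up and 1.59% down among all tested genes. DESeq2 called 2 up and 0 down. The median over the members was 0.22, and that over all genes was −7.3e-05. For Dusp4 the response went from −0.29 without Inf to 0.24 with Inf, a difference of 0.53 ± 0.13 (95% interval 0.28 to 0.79, adjusted p = 0.0104). It was called in all 12 fits that left out 1 library, with adjusted p from 0.0102 to 0.0493, and without Inf replicate 3 the difference was 0.48. For Spry1 the fall of 0.91 without Inf was a fall of 0.41 with Inf, a difference of 0.50 ± 0.14 (0.21 to 0.79, adjusted p = 0.0485). This call was not made with the replicate number as a block (0.50, adjusted p = 0.0734), with library size alone (0.49, 0.0517), or with a filter at a mean of 50 counts (0.48, 0.0521).

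The Spry1 call was made in 3 of the 12 fits that left out 1 library, those without IL-4/13 replicate 1, Inf replicate 3 (0.56), or IL-4/13 + Inf replicate 3. In the others the difference was 0.41 to 0.53, and the adjusted p over the 12 fits ran from 0.0192 to 0.222. Dusp1 gave a difference of −0.39 ± 0.12 (adjusted p = 0.105), the only member besides Dusp10 and Dusp16 with a value below 0. It was called down without control replicate 1 (−0.47, adjusted p = 0.0351), without Inf replicate 2 (−0.47, 0.0259), and with no filter on low counts (−0.38, 0.0059), and its adjusted p ran from 0.0259 to 0.246 over the 12 fits.

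**Figure D4:**
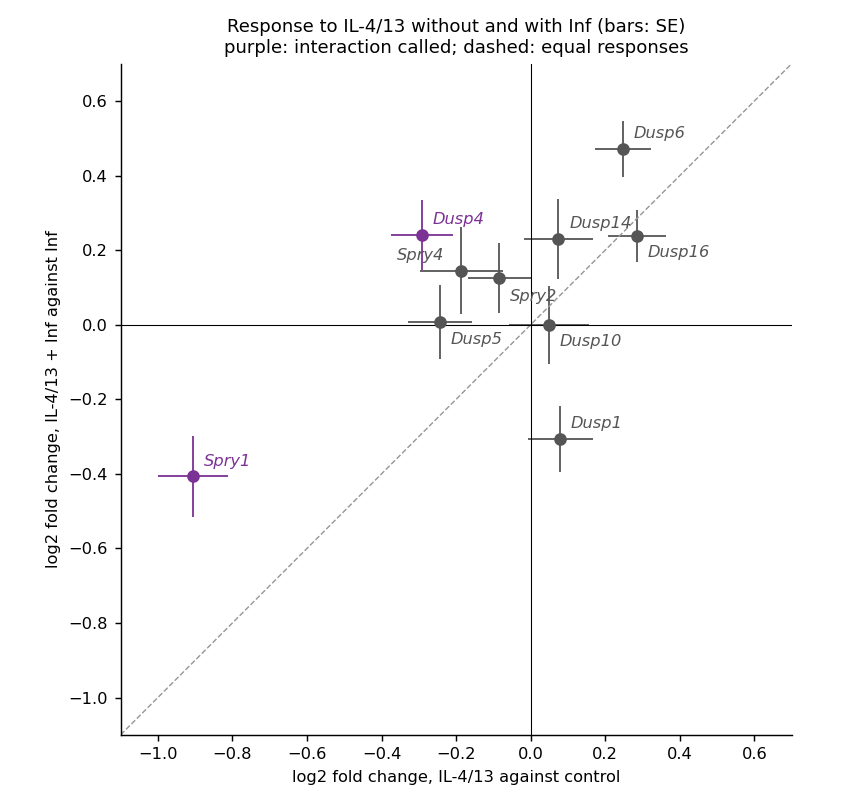
Log2 fold change with IL-4/13 in the absence of Inf (x axis) and in its presence (y axis) for each member, with SE bars and a dashed line of equal responses. Dusp4 and Spry1 (purple, interaction called) lie 0.53 and 0.50 above the line, Dusp1 lies 0.39 below it, and Dusp16 lies close to it.

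The other genes of the pathway were counted over lists, to be read against the shares of all tested genes called, which were 16.3% up and 15.3% down with Inf and 2.78% up and 2.57% down with IL-4/13. With IL-4/13 + Inf against control, the shares were 13.4% up and 11.5% down. Of the 4 other DUSPs of the MAPK phosphatase type, Inf lowered 2, Dusp2 (log2 fold change −1.40 ± 0.37) and Dusp9 (−0.53 ± 0.13), and raised 0. Dusp2, with at most 25 counts in a library, was at 1.39 ± 0.13 CPM in control and 0.53 ± 0.12 in Inf. IL-4/13 alone called 0 of these 4 in edgeR. Of 9 other atypical DUSPs tested, 0 were called with Inf and 0 with IL-4/13 alone, and IL-4/13 + Inf raised Dusp3 (0.48 ± 0.09) and lowered Dusp18 (−0.39 ± 0.07). The list medians with Inf were −0.31 and 0.03.

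Of 11 other inhibitors of receptor tyrosine kinases and Ras tested, 2 were called up and 0 down by Inf, and 5 up and 0 down by IL-4/13 + Inf, with list medians of 0.06 and 0.16, where 16.3% and 13.4% of all tested genes were called up. Lrig1, which promotes the degradation of ErbB receptors, rose from 203 ± 10.4 CPM in control to 514 ± 30.8 in Inf (log2 fold change 1.34 ± 0.05). Spred3, a Sprouty-related protein, rose as well (0.50 ± 0.07). Errfi1, an inhibitor of the EGF receptor, was at 218 ± 6.01 CPM in control, 343 ± 10.7 in IL-4/13, 185 ± 4.46 with Inf, and 277 ± 9.53 with IL-4/13 + Inf. It rose with IL-4/13 both without Inf (0.65 ± 0.04) and with Inf (0.58 ± 0.04). Il17rd, a membrane inhibitor of fibroblast growth factor signaling that also takes part in IL-17 signaling, fell with IL-4/13 alone (−0.44 ± 0.12) and gave an interaction of 0.69 ± 0.16 (adjusted p = 0.00979). Rasa1, a Ras GTPase-activating protein, had the other called interaction of the list (−0.26 ± 0.06, adjusted p = 0.0121).

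The transcripts that depend on ERK included genes of both directions. Of 12 tested, Inf lowered 6 and raised 2 (list median −0.18). Ccnd1, which encodes cyclin D1, fell from 688 ± 23.4 CPM in control to 248 ± 15.2 in Inf (log2 fold change −1.47 ± 0.04), and the transcription factors Egr1 (−0.92 ± 0.06) and Etv5 (−0.90 ± 0.06) fell as well. Ier3, which is also a target of NF-κB, rose from 33.5 ± 3.61 to 207 ± 14.9 CPM (2.62 ± 0.11), and Phlda1 rose by 0.77 ± 0.06. Added to Inf, IL-4/13 raised 5 of the 12, among them Phlda1 (0.72 ± 0.06), Ccnd1 (0.49 ± 0.04), and Etv4 (0.40 ± 0.05), and lowered Epha4. Among all tested genes, 7.55% were called up and 7.0% down in this contrast. Without Inf, IL-4/13 raised 1 of the 12, Phlda1 (0.82 ± 0.06), and lowered 1, Epha4 (−0.43 ± 0.13). IL-4/13 alone called 2.78% of all tested genes up and 2.57% down. For Phlda1 (−0.10 ± 0.08) and Epha4 (−0.16 ± 0.20) the interaction was not called. The interaction was called up for 4 of the 12, Ccnd1 (0.45 ± 0.06), Egr1 (0.41 ± 0.09), Etv4 (0.32 ± 0.07), and Epha2 (0.31 ± 0.08), and down for 0, with a list median of 0.21. Of all tested genes, the interaction called 1.52% up and 1.59% down.

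Of the 17 genes of the Ras-ERK cascade, Inf raised 5 and lowered 0 (list median −0.03), the largest being Ksr1, a scaffold of the cascade (0.72 ± 0.08), and Map2k1, which encodes the ERK kinase MEK1 (0.42 ± 0.04). Of 19 genes of the p38 and JNK cascade, Inf raised 4 and lowered 1 (list median 0.04), against 16.3% up and 15.3% down among all tested genes. IL-4/13 alone raised 3 of the 19, Mapkapk3, Map2k6, and Map3k8, and lowered 0, against 2.78% up and 2.57% down among all tested genes. Added to Inf, IL-4/13 raised 4 and lowered 0, against 7.55% up and 7.0% down. Map3k8, though counted in this list, is a kinase that links TNF and IL-1 receptors to ERK. It rose from 3.04 ± 0.25 CPM in control to 18.8 ± 0.76 with Inf and 24.4 ± 1.44 with IL-4/13 + Inf (2.63 ± 0.12 and 3.00 ± 0.12 on the log2 scale). With IL-4/13 alone Map3k8 rose to 5.57 ± 0.33 CPM (0.865 ± 0.14). Mapkapk2, a p38 target kinase, rose with Inf (1.37 ± 0.04), and its relative Mapkapk3 rose with IL-4/13 (1.103 ± 0.11). Map2k3, a kinase of p38, fell with Inf (−0.40 ± 0.05). Of 10 growth factor receptors, Inf raised 4, among them Pdgfra (0.97 ± 0.07), Egfr (0.92 ± 0.12), and Pdgfrb (0.84 ± 0.08), and lowered Met (−0.66 ± 0.06). IL-4/13 + Inf raised 2 and lowered 3 against control, and called neither Pdgfra (0.19) nor Pdgfrb (0.07). Added to Inf, IL-4/13 raised 0 and lowered 3, Pdgfra (−0.78 ± 0.07), Pdgfrb (−0.77 ± 0.08), and Fgfr2 (−0.42 ± 0.10). The interaction of Pdgfra was −1.02 ± 0.09 (adjusted p = 2.57e-06). IL-4/13 alone raised Egfr (0.49 ± 0.12) and lowered Pdgfrb (−0.65 ± 0.09) and Fgfr2 (−0.64 ± 0.10).

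**Figure D5:**
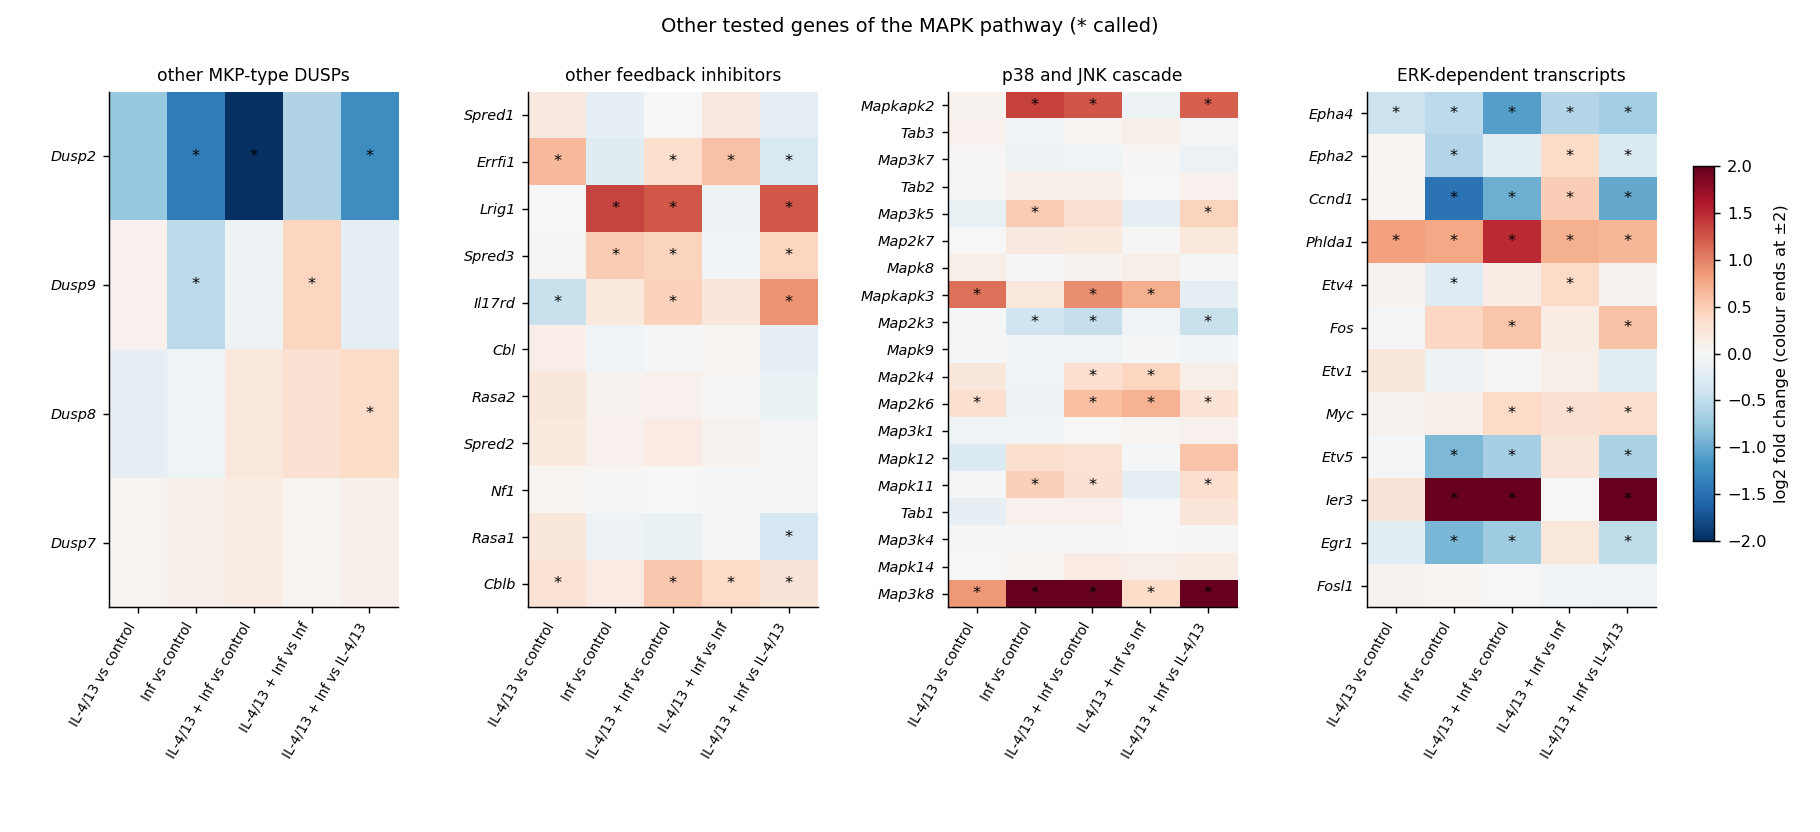
Log2 fold changes of 4 lists of pathway genes in 5 contrasts, in color up to ±2, with called values starred. Red is higher and blue is lower. Map3k8 and Ier3 are dark red in the columns with Inf against control, and Ccnd1, Egr1, and Etv5 are blue there.

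Across the 12 libraries, the pattern of each member was compared with 10915 genes of at least 5 CPM on average, as a description over libraries that share conditions. The nearest were Ell2 and Tnfrsf23 for Dusp16 (Pearson's r of log2 CPM 0.98 for both), Acta2 and Efemp2 for Spry1 (0.98 for both), Ccnd2 and Gpt2 for Dusp4 (0.99 for both), Sdc2 and Fkbp9 for Dusp5 (0.99 for both), Racgap1 and Hdgfl3 for Dusp14 (0.99 for both), and Prag1 and Plekho2 for Spry2 (0.99 for both). Dusp6 was nearest to Urb2 (0.97) and Kif5b (0.96), and Spry4 to Slc6a6 (0.96) and Limd1 (0.95). Values were lower for Dusp1 (Ift56 and Ano8, 0.88 for both) and Dusp10 (Ascc3, 0.87, and Plagl2, 0.82). Acta2 encodes the smooth muscle actin used as a marker of contractile fibroblasts. Among the members themselves, Spry2 and Dusp14 were the most alike (r = 0.98) and Dusp5 and Dusp16 the most opposed (r = −0.94). By rank correlation, 1 of the 2 nearest genes was the same for Dusp1 and Spry2, and 0 were for the others.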

How the data were processed

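RNA of 3T3-L1 cells was purified, and stranded libraries were made from polyadenylated transcripts. The table that the authors deposited holds counts, reads assigned to each gene in 12 libraries, without normalization. The submitters' processing notes name STAR, featureCounts, and GRCm39, and versions, annotation release, strand setting, and the treatment of shared reads are not given in the sources used here. Genes were filtered with filterByExpr (minimum count 10, minimum total 15) and tested with edgeR 4.0.16 in R 4.3.3, in 1 robust quasi-likelihood fit with TMM scaling and condition as the factor. Adjustment was by Benjamini and Hochberg, separately per contrast. The study's methods name DESeq2 for these libraries, which was an alternative here (version 1.42.0). The thresholds on adjusted p (0.05) and log2 fold change (0.25) are those that the methods give for other data of the study. Log2 CPM had a prior count of 2. SEs were derived from the F statistics. The depth was 13446005 to 20775769 counts per library, which gives the counting errors stated with the levels.

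Gene models, lengths, and shared 50-base stretches came from GENCODE M21 (GRCm38), joined by gene identifier. By rule, all 10 members and any gene of the pathway lists could be named, among them up to 3 called genes of largest change per list and contrast, and the 2 genes nearest in pattern to each member. The members and lists were chosen with earlier results of these data known. The fits were tested on simulated counts. Alternatives were DESeq2, its size factors, scaling by library size, either no filter or one at a mean of 50 counts, fits of the compared groups, a replicate block, omission of each library in turn, log2 thresholds of 0.5 and 1, and an adjusted p of 0.01. Figures were drawn with matplotlib 3.10.9.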

Additional observations from a re-analysis of the deposited data

Results flagged for a closer look

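In 2 members, the response to IL-4/13 differed between cells with and without Inf by the test of the difference itself. For Dusp4 the response with Inf was 0.532 higher on the log2 scale than that without Inf (edgeR, adjusted p = 0.0104), since levels went from 27.7 ± 0.88 to 22.6 ± 0.69 CPM without Inf and from 12.1 ± 0.84 to 14.2 ± 0.83 CPM with Inf (SD, n = 3). For Spry1 the difference was 0.498 (adjusted p = 0.0485, with 0.0192 to 0.222 when 1 library was left out, 0.0734 with the replicate block, 0.0517 with library size alone, and 0.0521 with the filter at a mean of 50 counts), with levels that went from 30.7 ± 0.97 to 16.3 ± 1.66 CPM and from 12.5 ± 1.05 to 9.41 ± 0.93 CPM.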

How the results depend on the processing

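Of the members' values in each contrast under each alternative, 1209 kept their direction and their side of the thresholds, 63 were no longer called, 15 became called, and 23 changed sign, none of which was called. With library size alone, with a filter at a mean of 50 counts, and with the replicate block, the members called by the interaction went from 2 to 1 (Spry1 was not called), and the cause was not tested. At a log2 fold change threshold of 0.5, the members called were 1 for IL-4/13, 7 for Inf, and 6 for IL-4/13 + Inf against control, 0 for IL-4/13 + Inf against Inf, 6 for IL-4/13 + Inf against IL-4/13, and 1 for the interaction, and the tested genes called were 309 for IL-4/13, 2377 for Inf, and 2134 for IL-4/13 + Inf against control, 754 for IL-4/13 + Inf against Inf, 1934 for IL-4/13 + Inf against IL-4/13, and 163 for the interaction. At a threshold of 1, the members called in the same order were 0, 4, 2, 0, 1, and 0, and the tested genes called were 108, 1095, 1096, 238, 936, and 40. At an adjusted p of 0.01, the members called were 1 for IL-4/13 against control and 0 for the interaction, and the interaction called 277 tested genes. These thresholds remove calls by construction. Nothing in the labels says that replicate numbers pair the libraries, and deviations of same-numbered libraries had correlations of −0.15 to 0.05. With the replicate block, 1 member and 410 tested genes were called by the interaction, and the members called in the other contrasts were unchanged in number at 3, 7, 9, 3, and 7. The tested genes called in those contrasts with the block were 717, 4619, 3610, 2069, and 3516. When 1 library was left out, the members called ranged from 2 to 3, 7 to 8, 8 to 9, 2 to 4, and 7 to 8 in the 5 contrasts, and from 1 to 2 for the interaction, where tested genes called ranged from 342 to 653. In the 5 contrasts, the tested genes called ranged from 584 to 879, 4432 to 4802, 3467 to 3768, 1798 to 2248, and 3222 to 3681. Differences near 0 changed sign. For Dusp10, IL-4/13 + Inf against Inf was 0.0014 with DESeq2, 0.0017 with its size factors, and 0.0058 with no filter. Dusp6 in IL-4/13 + Inf against IL-4/13 was −0.015 with library size alone, and Dusp5 in IL-4/13 + Inf against Inf was −0.011 with the filter at a mean of 50 counts. With 1 library left out, Dusp10 ranged from −0.023 to 0.12 (IL-4/13 against control), −0.035 to 0.053 (IL-4/13 + Inf against Inf), and −0.12 to 0.024 (interaction), Dusp1 from −0.018 to 0.16 (IL-4/13 against control) and −0.10 to 0.053 (Inf against control), Dusp5 from −0.086 to 0.083 (IL-4/13 + Inf against Inf), Dusp6 from −0.016 to 0.072 (IL-4/13 + Inf against IL-4/13), and Dusp16 from −0.10 to 0.013 (interaction). The smallest change that 3 libraries a condition could detect was not measured.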
